A study of Mus musculus with 50 samples.

Results

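Of 8 genes that Wnt signalling keeps on around the central vein of the mouse liver, listed by name as Glul, Oat, Slc1a2, Rhbg, Axin2, Tbx3, Lgr5 and Rnf43, 7 were among the 12185 genes analysed here, and Rhbg, an ammonium transporter, was not. All 7 passed the filter of a mean of at least 1 normalized CPM (CPM, the share of a library's reads, with the library size scaled between libraries). They were followed over 50 liver RNA-seq libraries of mice from a single cross, whose genotypes differ from mouse to mouse.

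Blood crosses the liver lobule from the portal triads to the central vein, and hepatocytes along the way carry different enzymes. Endothelial cells of the central vein secrete Wnt ligands, which stabilize beta-catenin in the neighbouring hepatocytes and switch on pericentral genes. Glutamine synthetase, confined to the innermost ring of cells, removes the ammonia that the urea cycle of the periportal cells has let pass.

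The mice were offspring of a cross of (B6.A4 x B6)F1 with (B6.A6 x B6)F1 animals, which the study calls the N2 generation. Only chromosomes 4 and 6 could therefore carry A/J alleles on a C57BL/6J background, and each mouse kept at least 1 C57BL/6J copy of both. The labels call them adult F2 males, and the study's methods give an age of 5 weeks and an overnight fast. The study bred both sexes and scanned expression with and without sex as a covariate. That the mice here were male therefore rests on the labels alone and was not tested. The study asks how loci on these 2 chromosomes act together on traits and expression, but the genotypes were not used here, so no genotype class separates the libraries. The libraries differ by their number, in a set numbered 1 to 30 (n = 28) and a set numbered 31 to 59 (n = 22), and by an animal number. None of the members lies on chromosome 4 or 6.

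Between 11965594 and 29976557 reads per library were counted. Animal numbers stood on 2 libraries in 2 cases, leaving 48 distinct numbers. The sum of 4 hepatocyte markers ran from 69250 to 115227 normalized CPM, against 182.98 to 282.88 for 8 endothelial markers, 228 to 401 for 6 Kupffer cell markers, 64.0 to 155 for 5 stellate cell markers, 16.99 to 41.8 for 4 cholangiocyte markers and 94.7 to 302 for 5 erythroid genes. The library numbered 24 stands apart in several genes outside the list, and leaving it out changed none of the calls of pairs of members. In bulk tissue, fewer cells of a type and less RNA per cell cannot be told apart.

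The members sit on 6 chromosomes (GRCm38, GENCODE). Glul lies at chr1:153899944-153909723 (plus strand), Oat at chr7:132557478-132576398 (minus), Slc1a2 at chr2:102658659-102790784 (plus), Axin2 at chr11:108920349-108950783 (plus), Tbx3 at chr5:119670669-119684724 (plus), Lgr5 at chr10:115450311-115587780 (minus) and Rnf43 at chr11:87662722-87735539 (plus). Values are sums over the whole gene. For 5 of the 8 genes the RefSeq promoter set (GRCm38.p6) holds a window, and Tbx3, Lgr5 and Rhbg are named only. The 250 bases before the start are shown for Glul and Slc1a2, the pair of members with the smallest adjusted p over all libraries, and for Axin2, the common reporter gene of beta-catenin activity. Capitals mark the letters CTTTGA or the letters CTTTGT, with their reverse complements, TCAAAG for the former and ACAAAG for the latter, the core bound by TCF/LEF factors, searched on both strands.
Glul, chr1:153899679-153899928, plus strand: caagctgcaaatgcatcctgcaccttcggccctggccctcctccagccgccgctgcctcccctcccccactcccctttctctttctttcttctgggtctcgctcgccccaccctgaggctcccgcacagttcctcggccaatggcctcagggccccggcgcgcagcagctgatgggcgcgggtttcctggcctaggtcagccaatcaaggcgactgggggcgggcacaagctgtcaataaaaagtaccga
Slc1a2, chr2:102706188-102706437, plus strand: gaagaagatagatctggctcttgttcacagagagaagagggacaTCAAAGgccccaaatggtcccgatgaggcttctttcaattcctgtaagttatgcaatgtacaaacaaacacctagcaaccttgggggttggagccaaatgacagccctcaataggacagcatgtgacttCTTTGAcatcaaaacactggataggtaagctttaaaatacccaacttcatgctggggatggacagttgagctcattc
Axin2, chr11:108920099-108920348, plus strand: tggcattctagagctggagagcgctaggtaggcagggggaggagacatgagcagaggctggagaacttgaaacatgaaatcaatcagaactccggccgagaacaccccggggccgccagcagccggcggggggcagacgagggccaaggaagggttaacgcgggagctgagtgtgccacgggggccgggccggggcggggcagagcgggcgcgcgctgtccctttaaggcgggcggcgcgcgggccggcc
Of the 6 windows of members, only that of Slc1a2 held a match. TCAAAG began 206 bases before the start and CTTTGA 77 bases before it. Of 32851 promoter windows of the same length, 27.6% held at least 1 match and 5.15% at least 2. The Slc1a2 window belongs to a start inside the gene as GENCODE draws it. The other windows say only that these letters are not in these bases.

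The nitrogen-handling members were abundant and the Wnt feedback members scarce. Oat, the mitochondrial aminotransferase that turns ornithine towards glutamate, was lowest at 426, had a median of 742 and reached 1177 normalized CPM. Glul, glutamine synthetase, ran from 207 through a median of 458 to 585. Slc1a2, a glutamate transporter of the plasma membrane, ran from 50.3 through 95.6 to 138. All 3 therefore spanned less than 3-fold over the libraries. Rnf43, a ubiquitin ligase that removes Frizzled receptors from the cell surface, ran from 6.12 through 11.5 to 20.7. Tbx3, a T-box repressor switched on by beta-catenin, ran from 4.73 through 10.3 to 22.3. Axin2, the scaffold of the complex that degrades beta-catenin and itself a target of the pathway, ran from 1.52 through 4.28 to 8.13. Lgr5, a receptor for R-spondins, ran from 0.688 through 2.49 to 5.01, which is 9 to 77 reads.

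Per kilobase of exon the order of mean levels was Oat (327 ± 74.2, SD, n = 50), Glul (130 ± 30.5), Slc1a2 (7.04 ± 1.54), Rnf43 (1.84 ± 0.520), Tbx3 (1.74 ± 0.627), Axin2 (0.828 ± 0.257) and Lgr5 (0.249 ± 0.0912). Each neighbour in that order was higher in all 50 libraries, except that Rnf43 was above Tbx3 in 24 of 50, so these 2 do not differ beyond their spread. The ranges of Oat, Glul and Slc1a2 did not overlap with that of the next gene, while those of Rnf43 and Tbx3, of Tbx3 and Axin2, and of Axin2 and Lgr5, did.

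**Figure D1:**
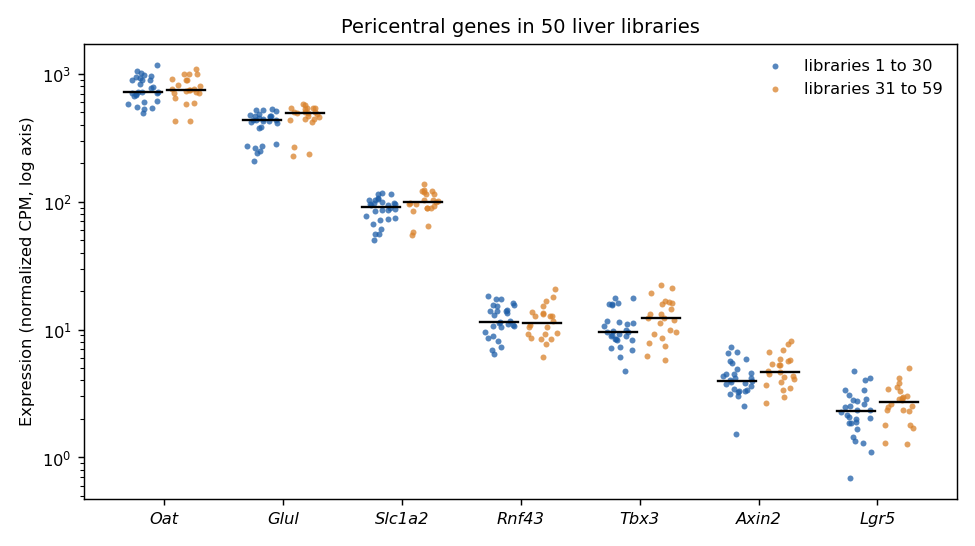
Level of the 7 members in 50 liver libraries, in normalized CPM on a log axis; each point is 1 library, coloured by library set, and the bars are medians. Oat and Glul lie above 200 in every library, Axin2 and Lgr5 below 9, and Glul has a separate lower band.

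The members varied more between libraries than most genes of like abundance. The coefficient of variation was 23.5% for Glul, 22.7% for Oat, 21.9% for Slc1a2, 28.3% for Rnf43, 30.98% for Axin2, 36.01% for Tbx3 and 36.7% for Lgr5. Among the 200 genes nearest in mean, these stood at percentiles from 83.0 for Glul to 95.5 for Rnf43. The sampling of reads alone accounted for 0.171% of the variance in Oat and 0.284% in Glul, but 15.5% in Axin2 and 19.8% in Lgr5, so a weak relation of the latter pair is hard to see at this depth. These shares cover counting error only.

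Glul fell into 2 separate bands. In 10 libraries it lay between 207 and 282 normalized CPM, and in the other 40 between 380 and 585, with no library in the 97.9 between them. The gap spans 0.43 on the log2 scale, against 0.11 for the next widest gap in Glul, and a library's counting error was 3.37 to 6.70 normalized CPM. With at least 5 libraries required on each side, the gap took 28.7% of the log2 range of Glul, and 10 of 11436 genes (0.0874%) had one that took as large a share. In the other 6 members the widest gap took 5.12% to 7.88% of the range. The values of the lower band were 207 (library 22), 226 (34), 236.2 (45), 239 (15), 247.7 (18), 262 (24), 269 (57), 273 (1), 274.2 (12) and 282 (6). Of these, 7 belong to the first set and 3 to the second, and their counted reads run from 12643675 to 21752909. Libraries 22 and 55 carry the same animal number and stood at 207 and 506, on either side of the gap. Libraries 8 and 10, which also share an animal number, stood at 482 and 454.

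**Figure D2:**
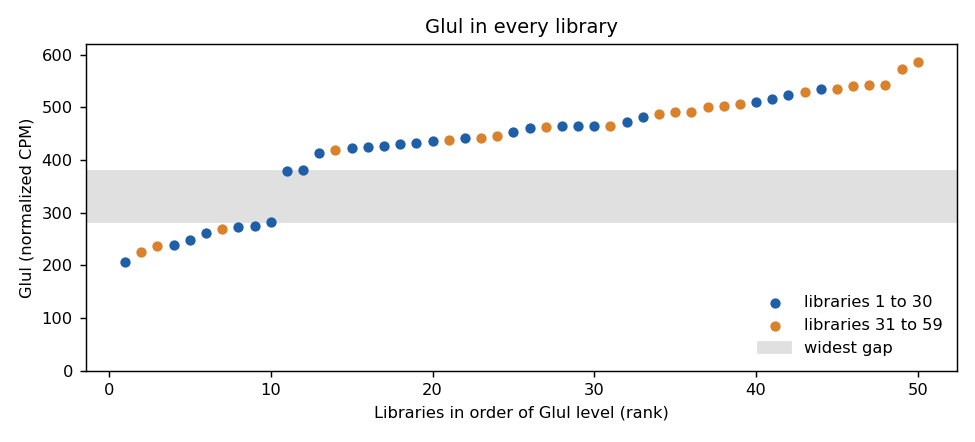
Glul level (normalized CPM, axis from 0) of the 50 libraries in rising order, coloured by library set. The grey band is the gap between 282 and 380, with 10 libraries below it and 40 above it.

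The same 10 libraries were not the lowest for every member. Of the 10 libraries with the least Slc1a2, 8 were among them. For Oat, Tbx3 and Rnf43 the number was 4 each, for Axin2 it was 2 and for Lgr5 it was 1. Such overlaps were not counted over all genes, so the small counts have no background to be read against. Genes outside the list stood with the band as closely or more closely. All 10 were also the 10 lowest for Mup7, Cyp2d9 and Ugt3a2 and the 10 highest for Esm1 and Aldh1b1, and 9 of the 10 were among the 10 highest for H19, an imprinted RNA of the fetal liver. These genes were chosen after their values were seen. Since the libraries fall apart in this way, relations of Glul are given within each band as well, a choice made after seeing the data, and the band of 40 spans a narrower range of Glul.

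Of 21 pairs of members, 3 were related over the 50 libraries by limma with Benjamini-Hochberg adjustment over all genes, with each gene in turn as the predictor. They were Glul with Slc1a2, Glul with Oat, and Axin2 with Tbx3, all positive. As a background, 11.7% of all genes were related to Glul, 17.8% to Slc1a2, 2.7% to Oat, 2.66% to Tbx3, 1.77% to Axin2, 0.429% to Lgr5 and 0.0262% to Rnf43.

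Slc1a2 rose with Glul by 0.71 ± 0.07 (log2 change per doubling ± SE, limma, adjusted p = 2.52e-11), and Glul rose with Slc1a2 by 0.97 ± 0.09 (adjusted p = 2.74e-10). Within the 40 libraries of the upper band the pair was still called, with a slope of 0.81 ± 0.19 (limma, adjusted p = 0.0495), and in the other direction of 0.42 ± 0.10 (adjusted p = 0.0076). There Pearson's r was 0.579 (permutation p = 9e-05, adjusted over the 21 pairs 0.000945) and Spearman's rho 0.547 (permutation p = 0.00037, adjusted 0.00259). With the 2 libraries most distant from the median of Glul left out it was 0.518, and it was 0.562 in the first library set (n = 21) and 0.440 in the second (n = 19). In the 10 libraries of the lower band r was 0.346 (permutation p = 0.331), which leaves the relation undetected there with so few libraries.

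Oat rose with Glul over the 50 libraries by 0.41 ± 0.11 per doubling (limma, adjusted p = 0.00634), but the relation was not detected within the bands. In the upper 40 libraries r was 0.124 (permutation p = 0.447, adjusted 0.722; rho 0.202, permutation p = 0.212) and the slope 0.24 ± 0.31 (limma, adjusted p = 0.728). In the lower 10 libraries r was -0.377 (permutation p = 0.277). The bands were cut on Glul itself and are narrow in it, so these values do not show that the relation was absent. Oat and Slc1a2 had r = 0.408 over the 50 libraries (permutation p = 0.00343, adjusted 0.018; rho 0.446, permutation p = 0.00118), which fell to 0.296 without the 2 farthest libraries and 0.11 in the upper band (permutation p = 0.502), and limma called the pair in 1 of its directions only.

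Axin2 and Tbx3, both feedback or target genes of the pathway, rose together over all libraries and in both library sets. The slope of Tbx3 was 0.88 ± 0.12 per doubling of Axin2 (limma, adjusted p = 5.0e-06), and that of Axin2 0.60 ± 0.08 per doubling of Tbx3 (adjusted p = 3.46e-06). Pearson's r was 0.725 and Spearman's rho 0.732 over the 50 libraries, both with the smallest p that the permutations can give (1e-05, adjusted 0.000105). Without the 2 farthest libraries r was 0.740, in the library sets 0.702 and 0.718, in the upper band of Glul 0.775, and in the lower band 0.518 (n = 10, permutation p = 0.122). Neither gene was called with Glul. Per doubling of Glul the slopes were 0.15 ± 0.14 for Axin2 (limma, adjusted p = 0.555) and 0.26 ± 0.17 for Tbx3 (adjusted p = 0.342). These values do not show that a relation was absent.

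Lgr5 and Glul were not called over the 50 libraries, where Lgr5 had a slope of 0.39 ± 0.15 per doubling of Glul (limma, adjusted p = 0.0865). In the upper band r was 0.550 (permutation p = 0.00027, adjusted 0.00189) and rho 0.568 (permutation p = 0.00015, adjusted 0.00157), with 0.513 without the 2 farthest libraries and 0.570 and 0.515 in the library sets. In the lower band r was 0.211 (n = 10, permutation p = 0.562). Limma gave 1.79 ± 0.42 for Lgr5 per doubling of Glul in the upper band (adjusted p = 0.0498), and in the other direction an adjusted p of 0.0928, so the pair was not called. Lgr5 and Slc1a2 had r = 0.438 in the upper band (permutation p = 0.00467, adjusted 0.0245) and rho 0.380 (permutation p = 0.0162, adjusted 0.0849). Rnf43 was called with no other member.

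**Figure D3:**
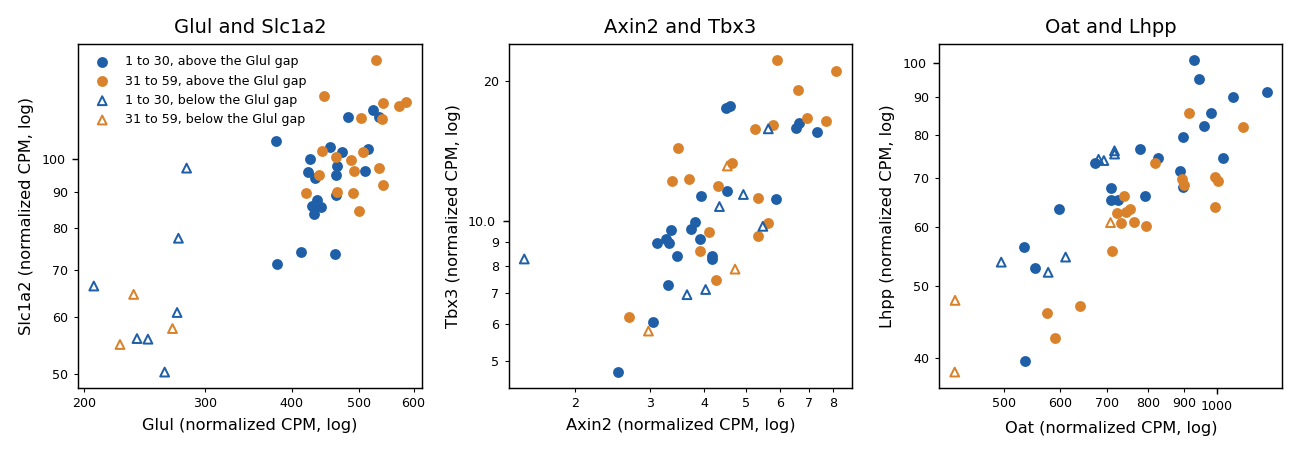
Slc1a2 against Glul, Tbx3 against Axin2, and Lhpp against Oat, each point 1 library, in normalized CPM on log axes; colour gives the library set and open triangles the 10 libraries below the gap in Glul. In the Glul panel the triangles lie to the left, 1 of them (library 6) with Slc1a2 above the median of 95.6, and they lie among the other points in the Axin2 panel, where r was 0.725.

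The other pericentral genes followed Glul and Slc1a2 over the 50 libraries. Of 23 such genes, 15 rose with Glul and 1 fell (limma, adjusted over all genes), and their median slope was 0.40 per doubling, against 0.0046 over all genes tested, of which 6.08% rose and 5.6% fell. Cyp1a2, which oxidizes caffeine and aromatic amines, rose by 1.04 ± 0.09 (adjusted p = 2.89e-12). Cyp2c50, a cytochrome of the arachidonate and drug-metabolizing family, rose by 0.97 ± 0.09, and Cyp2e1, which oxidizes ethanol, by 0.61 ± 0.06. The organic cation transporter Slc22a3 rose by 1.03 ± 0.17, while Gstm3, a glutathione transferase, fell by 0.60. The Cyp2c genes are close paralogs that can share reads. With Slc1a2, 15 of the 23 rose and 2 fell, against 9.33% and 8.47% of all genes.

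Of 20 periportal genes, none rose with Glul, 10 fell and 10 were not called, and the number that fell was 5 on ranks and 5 with the reads of the 10 most abundant genes as a covariate. Among those that fell were Aldh1b1, a mitochondrial aldehyde dehydrogenase on chromosome 4, with a slope of -1.39, Sds, serine dehydratase, with -0.51, Hsd17b13, a lipid droplet protein, with -0.48, and Gls2, the liver glutaminase that opposes Glul, with -0.46 per doubling. Of the urea cycle enzymes, Arg1 and Ass1 fell with slopes of -0.29 and -0.32 while Cps1 had 0.06 ± 0.13 (limma, adjusted p = 0.840). With Slc1a2, 7 periportal genes fell and 1, Cyp2f2, rose.

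Within the upper band of Glul, 0 of the 23 pericentral genes were called with Glul by limma. Of these, 7 had an unadjusted p under 0.05, as did 1935 of all 11435 genes. Of the 20 periportal genes 1, Hsd17b13, fell by 0.69 (limma, adjusted p = 0.0311), where 0.289% of all genes were called. The standard errors were wider there. The median slope with Glul was 0.34 over the pericentral genes and 0.03 over the periportal genes, where it had been -0.21 over all libraries. Cyp1a2 had 0.95 ± 0.25 and Cyp2e1 0.53 ± 0.17, whereas Slc22a3 moved from 1.03 to -0.18 ± 0.48. With Slc1a2, 0 of 23 pericentral genes and 1 of 20 periportal genes were called in the upper band, where 11.1% of all genes were. An unadjusted p under 0.05 was reached by 2 of the 23, and by 3234 of all 11435 genes. The pericentral median was 0.18, against 0.45 over all libraries.

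**Figure D4:**
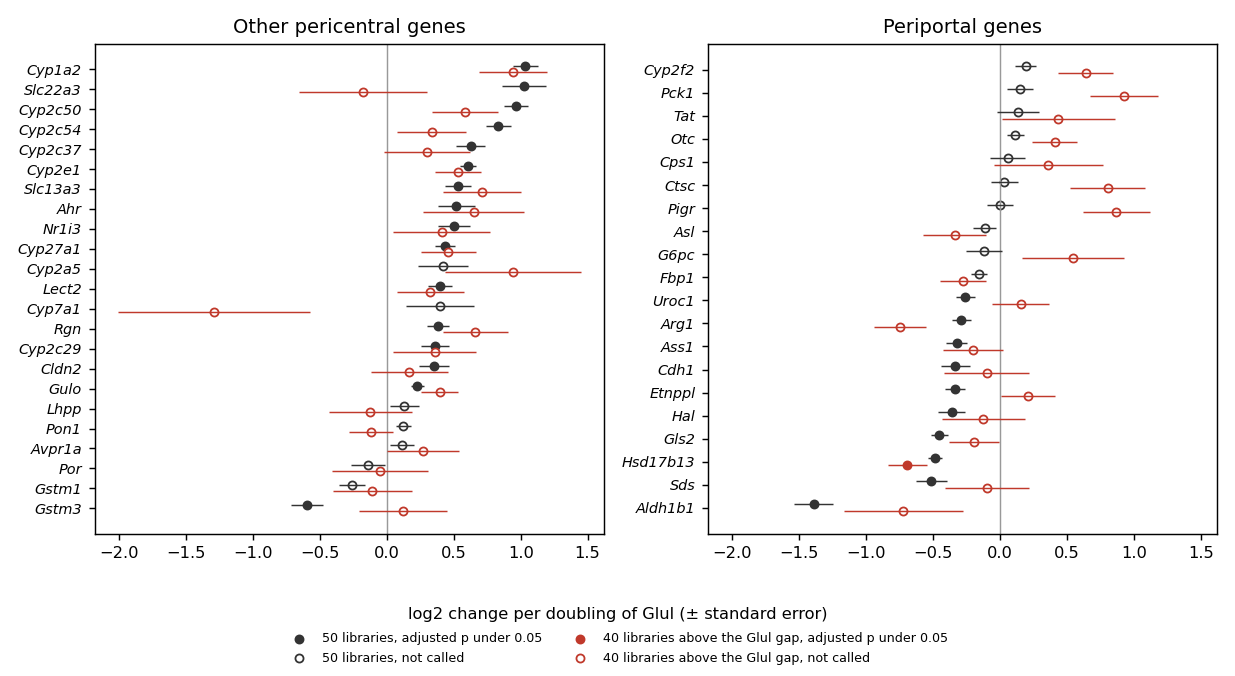
Slope of each pericentral (left) and periportal (right) gene per doubling of Glul on the log2 scale, with standard errors, over 50 libraries (black) and the 40 above the gap in Glul (red); filled points have an adjusted p under 0.05. Over 50 libraries 15 pericentral slopes are called to the right and 10 periportal slopes to the left, and in the 40 only Hsd17b13 is called.

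Other gene groups moved with Glul and Slc1a2 over the same libraries. As a background, 6.08% of all genes rose with Glul and 5.6% fell, and 9.33% rose with Slc1a2 and 8.47% fell. Of 10 genes that male mouse livers are known to carry more of, a list drawn up after seeing the data, 9 rose with Glul, led by Mup7, a urinary protein, by 4.67 ± 0.39, and Cyp2d9 by 1.18 ± 0.11 per doubling. The Mup genes are near-identical copies, so their counts are uncertain. All 3 tested genes that female livers are known to carry more of fell, Cyp2a4 with a slope of -3.09, and H19 had -2.61. The summed level of the male list ran from 576 to 14960 normalized CPM. Of the markers of other cells, Clec4g rose while Lyve1 and Clec14a fell among 8 endothelial genes. Colec11 and Des fell among 5 stellate genes, Marco fell among 6 Kupffer genes, Spp1 rose among 4 cholangiocyte genes, and 0 of 4 hepatocyte markers was called. A count of 1 in lists this short cannot be told apart from the shares over all genes. Of 5 erythroid genes Alas2 rose, while the 4 globin genes had slopes from -0.56 (Hbb-bs, adjusted p = 0.053) to -0.49 (Hba-a2, adjusted p = 0.12) in the same limma fit and were not called. With Slc1a2 as the predictor, 9 of the 10 male-list genes rose, all 3 female-list genes fell and 2 of 5 stellate genes fell. Of the 8 endothelial genes 2 rose and 2 fell with Slc1a2, 1 of 5 erythroid genes rose, and 0 Kupffer or cholangiocyte genes were called. The part of these groups in the relations of Glul was not tested as a cause. A covariate was made from the male list, as the mean of its log2 levels with each gene first scaled to the same spread. With this covariate, chosen after seeing the data, all 3 pairs of members stayed called. Slc1a2 then rose by 0.54 ± 0.10 per doubling of Glul (limma, adjusted p = 0.000289) and Oat by 0.71 ± 0.14 (limma, adjusted p = 0.00153). With that covariate the pericentral genes rising went from 15 to 11 with Glul and from 15 to 1 with Slc1a2. The periportal genes falling went from 10 to 5 with Glul and from 7 to 1 with Slc1a2.

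Outside the members, 4 of 36 tested genes of the Wnt pathway (11.1%) were called with Glul, near the 11.7% of all genes. Wnt2, a ligand made by central vein and sinusoidal endothelium and encoded on chromosome 6, rose by 0.47 ± 0.11 per doubling of Glul (limma, adjusted p = 0.00178) and by 0.61 ± 0.12 per doubling of Slc1a2 (adjusted p = 0.000238), the only 1 of 5 tested genes of ligands and their processing called with either. In the upper band of Glul it was called with neither, with 0.18 ± 0.29 per doubling of Glul (limma, adjusted p = 0.802) and 0.38 ± 0.20 per doubling of Slc1a2 (adjusted p = 0.205). Among 6 further feedback targets Notum, which strips the lipid from Wnt proteins, rose by 0.36, and Ccnd1, cyclin D1, fell by 0.53. None of the 9 receptors and 2 tested antagonists was called with Glul, and of 14 intracellular components only Tcf7l1 was, a repressing TCF factor on chromosome 6, which fell by 0.24. Of 14 genes of glutamate and ammonia handling, Got1, Aldh18a1 and Aldh4a1 fell with slopes of -0.46, -0.39 and -0.14, and 0 rose.

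Over the 50 libraries 2 of 14 intracellular components of the pathway rose with Slc1a2 and 1 fell, where 9.33% and 8.47% of all genes did. Some parts of the beta-catenin machinery rose with Slc1a2 inside the upper band of Glul. There Gsk3b, the kinase that marks beta-catenin for decay, rose by 0.74 ± 0.13 per doubling of Slc1a2 (limma, adjusted p = 0.000556), Apc by 0.53 ± 0.16 and Ctnnb1, beta-catenin itself, by 0.31 ± 0.08, making 3 of 14 intracellular components. The receptors Lgr4 and Lrp6 rose by 0.63 and 0.50 and Fzd6 had -1.05. Of the 6 feedback targets 0 rose and 1 fell in that band, and of the 2 tested antagonists 0 rose and 1 fell. Of the 5 tested genes of ligands and their processing, 0 were called. These counts stand against 6.27% of all genes that rose and 4.79% that fell with Slc1a2 in that band. An unadjusted p under 0.05 was reached there by 5 of the 14 intracellular components and 3 of the 9 receptors, and by 3234 of all 11435 genes.

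Frizzled receptor genes followed Tbx3 and Axin2. Of 9 receptors, 5 rose with Tbx3 and none fell, where 1.51% of all genes rose. Fzd7 rose by 0.65 ± 0.08 per doubling of Tbx3 (limma, adjusted p = 2.19e-06), Fzd8 by 0.52 ± 0.09, Fzd6 by 0.44 ± 0.12, Fzd5 by 0.42 ± 0.12 and Fzd4 by 0.24 ± 0.05. The co-receptors Lrp5 and Lrp6 and the R-spondin receptor Lgr4 were not called. In the upper band of Glul the number was 6, with Fzd1 added. With Axin2, 3 receptors rose (Fzd6, Fzd7 and Fzd8), where 1.36% of all genes did, 2 without the library numbered 24, and 1 of them, Fzd7, in the upper band, where 0.892% of all genes were called with Axin2 and 2.88% with Tbx3. Bcl9, which couples beta-catenin to its co-activators, rose with both, by 0.48 ± 0.11 per doubling of Tbx3 and 0.59 ± 0.13 per doubling of Axin2. Of the 23 pericentral genes, 0 were called with Tbx3 and 0 with Axin2 over the 50 libraries, and 0 and 0 by edgeR. An unadjusted p under 0.05 was reached by 3 and 4, and by 1664 and 1860 of all 11435 genes. The periportal gene Tat, tyrosine aminotransferase, fell by 0.60 per doubling of Tbx3. Of the 8 endothelial markers, Kdr, a VEGF receptor, rose with Axin2 by 0.27 ± 0.07 and with Tbx3 by 0.23 ± 0.06, and Thbd, thrombomodulin, fell by 0.54 per doubling of Tbx3. In all, 4 of the 8 endothelial markers had an unadjusted p under 0.05 with Axin2 and 3 with Tbx3, as did 1860 and 1664 of all 11435 genes. In the upper band these were 4 and 5, against 1498 and 1634 of all genes. Clec14a was called there with Tbx3 (0.37 ± 0.08). The part of the endothelial markers in the receptor counts was not tested.

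**Figure D5:**
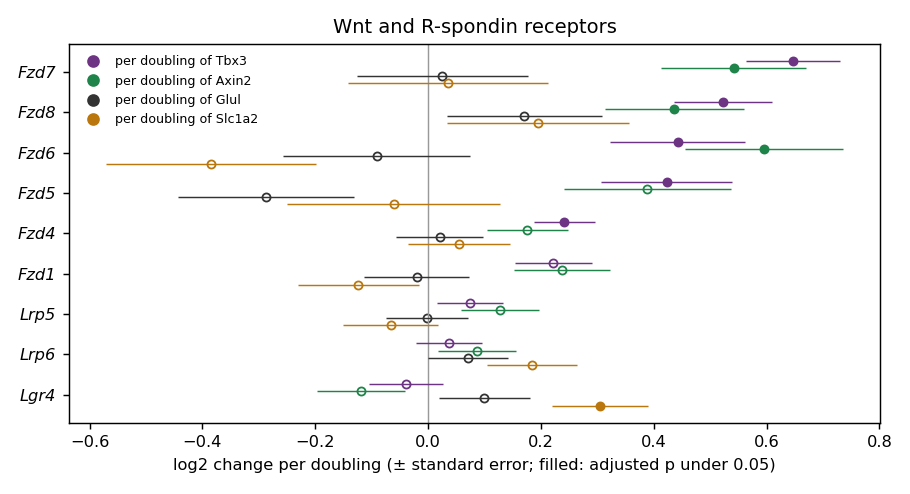
Slope of the 9 receptor genes per doubling of Tbx3, Axin2, Glul and Slc1a2 over 50 libraries, on the log2 scale with standard errors; filled points have an adjusted p under 0.05. The 5 filled Tbx3 points and 3 filled Axin2 points lie to the right of 0, Glul has no filled point, and Slc1a2 has 1, Lgr4.

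Fewer pericentral genes were called with Oat than with Glul. Of the 23, 3 rose with Oat and 1 fell, where 1.6% of all genes rose and 1.1% fell. An unadjusted p under 0.05 was reached by 14 of the 23, and by 1992 of all 11435 genes. The median slope of the 23 was 0.23. In the upper band of Glul 5 of the 23 reached it, and the median slope was -0.06. Lhpp, a phosphatase gene that lies 34.2 kb from Oat on chromosome 7 on the opposite strand, rose by 0.74 ± 0.08 per doubling of Oat (limma, adjusted p = 8.68e-09). Slc22a3 rose by 1.31 ± 0.18, and Cyp7a1, the rate-limiting enzyme of bile acid synthesis, by 1.20 ± 0.26, while Gstm3 fell by 0.59. Slc22a3 and Gstm3 had moved in the same directions with Glul. Of the 20 periportal genes 1 rose, Asl, by 0.36 ± 0.09 (limma, adjusted p = 0.0236). In the upper band of Glul 1 rose, Fbp1, by 0.31 ± 0.08 (limma, adjusted p = 0.0443), where 0.446% of all genes did. There 11 of the 20 had an unadjusted p under 0.05, as did 1708 of all 11435 genes, and the median slope was 0.22. In the upper band of Glul, Lhpp (0.80 ± 0.10) and Slc22a3 (0.95 ± 0.19) were called. Porcn, which attaches the lipid to Wnt proteins, fell by 0.36 over all libraries and by 0.49 in that band. The median slope of the 10 male-list genes with Oat was 0.49 over all libraries, with 0 called, and -0.89 in the upper band, where 1 fell. For the 3 tested female-list genes it was -0.67 and 1.40, with 0 called in either.

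Lgr5 and Rnf43 had the fewest called partners. Hsd17b13 alone among the listed genes was called with Lgr5, at -0.27 per doubling (limma, adjusted p = 0.0438), where 0.0787% of all genes fell. None was called with Rnf43, where 0.0262% of all genes were. An unadjusted p under 0.05 with Rnf43 was reached by 11 of the 23 pericentral genes, and by 924 of all 11435 genes. In the upper band of Glul these were 0 and 755. With Lgr5 it was reached by 10 of the 20 periportal genes, and by 2131 of all genes over the 50 libraries.

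The genes with the most similar profile were found by Pearson's r on the log2 scale over the 50 libraries, as a description. For Oat they were Lhpp (0.808, with 0.837 and 0.874 in the library sets), Rmdn3 (0.747) and Slc22a3 (0.713), and Fgfr2 was the most opposed (-0.667). For Axin2 they were Gse1 (0.736), Tbx3 (0.725) and Lonrf3 (0.676), against Ip6k2 (-0.576). For Tbx3 they were Fzd7 (0.737), Axin2 (0.725) and Id2 (0.721), an inhibitor of basic helix-loop-helix factors, against Rabgef1 (-0.775). For Lgr5 they were Adgrl2 (0.614), Mtus1 (0.610) and Phldb2 (0.589), against Sar1a (-0.555), and for Rnf43 Lrig1 (0.612), Tec (0.592) and Mitd1 (0.552), against Klf10 (-0.594). For Glul, whose libraries fall into bands, no r over all libraries is given. The same rule named Ugt3a2, Mup7 and Mup15, and Esm1 at the other end, but inside the upper band these had r of 0.342, 0.443, 0.372 and -0.107, and Slc1a2 (0.579) and Lgr5 (0.550) stood above them. For Slc1a2 the rule named Glul, Mup1 and Ugt3a2, with 0.579, 0.422 and 0.384 in the upper band, and at the other end Hsd17b13 with -0.536.

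No member was called for the library set or for animal number. In the 22 libraries of the second set Glul was 465 ± 100.2 (SD) and in the 28 of the first 404 ± 95.9, a log2 difference of 0.21 ± 0.11 (limma, adjusted p = 0.197). Axin2 was 4.97 ± 1.47 against 4.24 ± 1.31, a log2 difference of 0.21 ± 0.11 (adjusted p = 0.195), and Tbx3 12.8 ± 4.62 against 10.6 ± 3.53 (adjusted p = 0.215). By limma 0 of 7 members were called for the set, none had an unadjusted p under 0.05, and edgeR's quasi-likelihood test on the reads called 0, where 13.5% of all genes were called by limma (7.07% higher in the second set and 6.42% lower). For animal number the adjusted p ran from 0.247 for Lgr5 to 0.792 for Glul, 0 members had an unadjusted p under 0.05 and edgeR called 0, where 14.2% of all genes were called (7.49% rising and 6.73% falling). The slope with animal number did not differ between the sets for any member (0 of 7, lowest adjusted p 0.836, 0 under an unadjusted 0.05), where 0.035% of all genes were called. A p that misses the threshold does not show that the levels were equal.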

How the data were processed

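RNA of the caudate lobe of the liver was sequenced from stranded, poly(A)-selected libraries. After trimming, the authors aligned reads with HISAT2 to GRCm38.p5, obtained gene counts with HTSeq 0.11.1, removed genes with low counts and normalized with edgeR. The deposited table holds this normalized expression signal, a CPM scaled between libraries, for 12185 genes and 50 libraries. Dividing by the value of 1 read gave whole reads for 100% of values within 0.01 of a read. A floor of 3 reads is 0.0951 to 0.259 normalized CPM, for counting error only. Libraries form 1 group, and nothing but the animal number shows that they are separate mice, so p-values measure the spread between these libraries.

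Members and gene lists were chosen with earlier results of these data known. Genes named beside the lists are, for each member, the 3 with the highest and the 1 with the lowest Pearson's r. Exceptions are named as such. Symbols and positions came from GENCODE M21, exon lengths included. Limma 3.58.1 (R 4.3.3) was run on log2(value + 0.5) of the 11436 genes with a mean of at least 1, with the log2 level of a member, the library set or the animal number per 100 as predictor, two-sided, with Benjamini-Hochberg adjustment over all genes and a threshold of 0.05. A pair was called when both directions passed. Correlations had 100000 permutations. edgeR 4.0.16 on the reads and DESeq2 1.42.0 size factors were alternatives, beside pseudocounts, filters, covariates and omitted libraries. The scripts were tested on simulated data. Correlations and plots were made in Python 3.11.15 (scipy 1.17.1).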

Additional observations from a re-analysis of the deposited data

How the results depend on the processing

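The number of called pairs of members ranged from 2 to 4 over 15 alternatives, against 3. Glul with Slc1a2 (15 of 15) and Axin2 with Tbx3 (14 of 14) stayed called. Glul with Oat was called in 12 of 15 and lost with unscaled CPM (limma, larger adjusted p of the 2 directions 0.0896), on ranks (0.0795) and in the upper band of Glul alone (0.794). No called pair changed direction. Among differences that were not called, the sign turned for Oat with library set and for Glul and Slc1a2 with animal number in some alternatives. Members called stayed at 0 in the alternatives run for animal number (ranks not among them) and for the interaction (neither ranks nor edgeR among them). For library set the number became 1 in the upper band of Glul. That member was Glul itself, by whose level the band was chosen, so the call says nothing of the set.

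When the fit took account of the reads held by the 10 most abundant genes, the periportal genes falling with Glul went from 10 to 5 and those falling with Slc1a2 from 7 to 3. On ranks these were 5 and 4. In the upper band, pericentral genes rising went from 15 to 0 with Glul and from 15 to 0 with Slc1a2, periportal genes falling to 1 and 1, male-list genes rising with Glul from 9 to 0, and receptors rising with Axin2 from 3 to 1. This band has fewer libraries and a narrower range of Glul. The median slope of the male list with Glul was 1.55 there, against 1.39 over all libraries. An unadjusted p under 0.05 was reached there by 6 of the 10, and by 1935 of all 11435 genes. For the 3 tested female-list genes the median slope was -2.88 there, against -2.70 over all libraries. With Slc1a2, 2 of the 10 male-list genes rose in the band, where 6.27% of all genes did. With the male list as a covariate, periportal genes falling with Glul were 5 and with Slc1a2 1, and male-list genes rising with Glul 2. Pericentral genes rising were then 11 with Glul and 1 with Slc1a2. The cause was not tested. The alternatives with the upper band and the male list, and those of the list counts, were chosen after seeing the data. No paired analysis was possible because the libraries form 1 group. Depth limits Axin2 and Lgr5, whose lowest libraries held 32 and 9 reads.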
